A study of Mus musculus with 11 samples.

Results

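Progenitor B cells with 1 functional copy of Ebf1 were compared with wild-type progenitor B cells by RNA sequencing. The comparison used 6 of the 11 libraries of the series, 3 labelled Ebf1+/- and 3 labelled wild type, chosen by those labels. All 6 came from C57BL/6 bone marrow, were column purified, and were each pooled from several mice. The wild-type pools held 3, 7 and 6 mice and the Ebf1+/- pools 3, 6 and 7, for replicates 1, 2 and 3. The labels give neither age nor sex. No cell line, transgene or drug was named for these groups, and the allele that removes Ebf1 was not described. The other 5 libraries were lymph node leukemias of single mice that carried Pax5+/- together with Ebf1+/-. Of 23071 identifiers in the deposited table, 11167 averaged at least 1 FPKM (fragments counted on a gene, divided by its length and by library size) over the 6 libraries and were tested.

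Ebf1 is a transcription factor that commits lymphoid progenitors to the B lineage. It works with the E proteins, Foxo1 and Pax5 to switch on the components of the precursor B cell receptor. Pax5 then holds the lineage by repressing genes of other blood cells. A developing cell passes from the pro-B stage, marked by terminal transferase (Dntt) and the surrogate light chain genes Igll1 and Vpreb1, to the pre-B stage, marked by the interleukin-2 receptor chain Il2ra. Loss of 1 copy of Ebf1 or Pax5 is recurrent in B cell acute lymphoblastic leukemia.

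Library totals recovered from the FPKM values were between 11092970 and 15313920 reads. A single read on a gene of 2000 bases then counted for 0.033 to 0.045 FPKM. B cell markers were high in every library: Cd79a, a signalling chain of the B cell receptor, stood at 1092, 784.6 and 552.5 FPKM in wild type and 1212, 858.8 and 372.7 in Ebf1+/-. The table held 0 immunoglobulin segment genes and 0 mitochondrial genes. In bulk RNA, fewer cells of a type and less RNA per cell cannot be told apart. The submitters' notes list BWA for the wild-type and leukemia libraries and TopHat2 with Cufflinks for the Ebf1+/- libraries, so aligner and genotype cannot be told apart.

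Libraries within a genotype were unequal. Wild-type libraries correlated with each other at 0.954 to 0.983 across the genes tested, and Ebf1+/- libraries at 0.888 to 0.943. Wild-type replicate 2 and Ebf1+/- replicate 2 correlated at 0.988, above any pair within a genotype. Late granule genes of neutrophils were highest in Ebf1+/- replicate 1, and early granule and platelet genes in Ebf1+/- replicate 3.

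No gene passed the test. By limma with Benjamini-Hochberg adjustment, 0 of 11167 genes (0.0%) had an adjusted p under 0.05, and the smallest adjusted p was 0.0552, for Reln and for Ets2. At an unadjusted p under 0.05 there were 468 genes with higher values in Ebf1+/- (4.19%) and 395 with lower values (3.54%), 863 in all (7.73%). With the replicate number as a block, 1800 genes (16.1%) had an unadjusted p under 0.05 and 0 an adjusted one. Without wild-type replicate 1 the count at an unadjusted p under 0.05 was 427, and without Ebf1+/- replicate 2 it was 1374. Groups did not overlap, with all 3 Ebf1+/- values above or below all 3 wild-type values, for 841 genes higher in Ebf1+/- (7.53%) and 905 lower (8.1%). A difference of at least 2-fold was found for 226 higher (2.02%) and 87 lower genes (0.779%), and the median log2 fold change over all genes tested was 0.03. All fold changes are Ebf1+/- minus wild type in log2(FPKM + 1), where differences of low genes come out too small. The labels do not say that pools came from separate days or litters, so p-values measure only the spread between these samples.

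The targeted gene was lower on average, with overlapping groups. Ebf1 (chromosome 11, 44617317 to 45008091, GRCm38) was at 111.5, 102.3 and 83.43 FPKM in wild type and at 83.63, 86.48 and 43.41 in Ebf1+/-. The lowest wild-type library lay just below the upper pair of Ebf1+/- libraries, and Ebf1+/- replicate 3 stood apart at the bottom. In each same-numbered pair the Ebf1+/- library was the lower one, by log2 differences of -0.41, -0.24 and -0.93. The log2 fold change was -0.53 (SE 0.29, 95% interval -1.20 to 0.15), with an adjusted p of 0.717 by limma and 0.225 with the replicate number as a block. A two-sided exact permutation test gave p = 0.3, where 3 against 3 libraries cannot go below 0.1. Without Ebf1+/- replicate 3 the log2 fold change was -0.21. Whether the deleted allele still gives reads was not tested, because the table has 1 value per gene.

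Pax5 (chromosome 4, 44524757 to 44710487) was at 312.4, 175.4 and 179.7 FPKM in wild type and 254.2, 193.4 and 89.04 in Ebf1+/-. These ranges overlapped, with a log2 fold change of -0.39 (SE 0.42, adjusted p = 0.81 by limma), and the sign turned to 0.05 without Ebf1+/- replicate 3.

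Ebf1 binds DNA at a palindrome with the core CCCNNGGG, in its full form with a T before the core and an A after it. Both forms read the same on either strand, so 1 search covers both strands, and every full match holds a core. The full form was found in 0.904% of RefSeq mouse promoter windows (GRCm38.p6, 250 bases before to 50 after a start site), and the core in 13.7%. Of the 24 genes picked below by size and p, 21 matched a promoter entry. Of these, 0 held the full form and 7 the core (33.3%, against 20.7% of all tested genes that matched). Among 15 matched genes of a list that Ebf1 is known to activate, 2 held the full form (Ceacam1 and Foxo1) and 4 the core. Those were 13.3% and 26.7%, against 1.16% and 20.7% of all tested genes that matched. A match describes letters, not a bound site. The stretches below show how a full match differs from a bare core, for genes whose levels are given in the text. Capitals mark the match, and each stretch lies upstream of the start site, 5′ to 3′ on the gene's strand.
Foxo1, chr3:52268220-52268279, plus strand: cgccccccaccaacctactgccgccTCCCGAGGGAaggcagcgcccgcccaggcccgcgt
Ceacam1, chr7:25477626-25477666, minus strand: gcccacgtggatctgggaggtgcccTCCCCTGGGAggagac
Igll1, chr16:16864183-16864235, minus strand: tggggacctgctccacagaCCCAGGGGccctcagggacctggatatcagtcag
Adam19, chr11:46055842-46055901, plus strand: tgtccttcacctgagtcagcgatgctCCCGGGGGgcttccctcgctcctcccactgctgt
Gimap4, chr6:48684398-48684457, plus strand: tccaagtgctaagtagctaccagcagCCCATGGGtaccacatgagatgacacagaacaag
Reln, chr5:22344788-22344847, minus strand: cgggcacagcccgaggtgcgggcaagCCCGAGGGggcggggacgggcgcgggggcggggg

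Of the 2 genes with a full match, Foxo1, a partner of Ebf1 in B cell specification, was at 72.27, 58.32 and 53.57 FPKM in wild type and 44, 58.01 and 28.3 in Ebf1+/-. Ceacam1, an adhesion receptor, was at 16.07, 11.62 and 11.71 FPKM in wild type and 11.12, 11.93 and 11.33 in Ebf1+/-. Both genes overlapped between genotypes, with log2 fold changes of -0.54 (SE 0.27) and -0.17 (SE 0.17).

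The lowest unadjusted p-values belonged to genes with lower values in Ebf1+/- progenitors. Reln (chromosome 5, 21884454 to 22344702) encodes the secreted glycoprotein reelin, best known from neuronal migration. It was at 17.36, 8.708 and 16.02 FPKM in wild type and 0.4968, 0.5336 and 0.8081 in Ebf1+/-. The lowest wild-type library was far above the highest Ebf1+/- library, and the log2 fold change was -3.17 (SE 0.28, adjusted p = 0.0552 by limma). Over the alternatives run, that fold change stayed between -4.49 and -2.75 and the adjusted p between 0.000365 and 0.919.

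Ets2 (chromosome 16, 95702075 to 95721051), an ETS family transcription factor downstream of Ras signalling, was at 18.63, 14.23 and 15.72 FPKM in wild type. In Ebf1+/- it was at 3.93, 3.536 and 3.842 FPKM. The 3 Ebf1+/- libraries lay closer together than the wild-type ones and well below them, with a log2 fold change of -1.84 (SE 0.16, adjusted p = 0.0552 by limma).

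Another 10 genes completed the 12 lower ones that the naming rule chose. The rule asks for a higher group mean of at least 5 FPKM, a change of at least 2-fold and groups that do not overlap. In all, 79 genes with higher and 61 with lower values met it, and the 12 of smallest p in each direction are given. Their fold changes chose them and are a description.

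Adam19, a membrane metalloprotease, was at 64.82, 32.83 and 45.49 FPKM in wild type and 12.08, 14.68 and 10.62 in Ebf1+/-, a log2 fold change of -1.81 (SE 0.26). Glcci1, a gene named for its induction by glucocorticoid, was at 73.5, 55.28 and 60.5 FPKM against 23.31, 28.13 and 18.85. Edem3, which trims mannose from misfolded glycoproteins in the endoplasmic reticulum, was at 62.23, 44.36 and 50.44 FPKM against 19.56, 26.48 and 20.93. In all 3 genes the lowest wild-type library was above the highest Ebf1+/- library by a wide margin.

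Signalling regulators were among the lower genes as well. Inppl1, the lipid phosphatase SHIP2, was at 11.16, 8.356 and 7.866 FPKM in wild type and 2.486, 2.922 and 2.525 in Ebf1+/- (log2 fold change -1.46, SE 0.19). Dtx1, a Deltex ubiquitin ligase of the Notch pathway, was at 10.9, 7.105 and 6.667 FPKM against 2.443, 1.872 and 1.369. Amigo1, an adhesion protein with leucine-rich repeats, was at 10.17, 6.718 and 7.781 FPKM against 1.648, 1.995 and 1.436. Wild-type replicate 1 was the highest library for each of these genes. The other 4, Lrrc10b, Car13 (a carbonic anhydrase), Tmem132e and Fam63b, had log2 fold changes from -1.91 for Tmem132e to -1.05 for Fam63b.

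Among genes with higher values, Tbxa2r, the thromboxane A2 receptor, had the smallest p. It was at 10.27, 12.03 and 10.73 FPKM in wild type and 29.62, 26.49 and 25.96 in Ebf1+/-, a log2 fold change of 1.24 (SE 0.14, adjusted p = 0.13 by limma). Igfbp4, a secreted binding protein of insulin-like growth factors, was at 22.82, 33.96 and 26.01 FPKM against 75.67, 74.67 and 83.94 (log2 fold change 1.48, SE 0.18). The 3 Ebf1+/- libraries lay near each other for both genes and above every wild-type library.

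Rnase12, one of the secreted ribonucleases, had the largest difference of the 12 higher genes. It was at 2.481, 8.819 and 3.038 FPKM in wild type and 94.42, 56.12 and 24.49 in Ebf1+/- (log2 fold change 3.32, SE 0.57). Myl10, a myosin light chain first described in precursor lymphocytes, was at 10.36, 22.2 and 18.16 FPKM against 74.79, 65.78 and 55.64. Fxyd6, a regulator of the sodium pump, was at 3.723, 5.882 and 3.157 FPKM against 36.99, 35.63 and 12.86. In each of these genes wild-type replicate 2 was the highest wild-type library and Ebf1+/- replicate 3 the lowest Ebf1+/- library.

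Adgrg3, an adhesion G protein-coupled receptor, was at 8.394, 8.682 and 11.01 FPKM in wild type and 33.11, 19.2 and 29.39 in Ebf1+/-. Adgrg3 is also expressed by neutrophils, whose marker genes were higher in the same libraries, and the part of neutrophils in this value was not tested. Pik3r6, a regulatory subunit of the gamma class of PI3 kinase, was at 1.54, 2.016 and 1.473 FPKM against 7.379, 5.432 and 4.839. Ramp1, an accessory protein of peptide hormone receptors, was at 11.81, 13.28 and 13.31 FPKM against 34.53, 22.6 and 26.86. Arl11, a small GTPase of the ARF-like family, had a log2 fold change of 1.21 (SE 0.21).

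**Figure D1:**
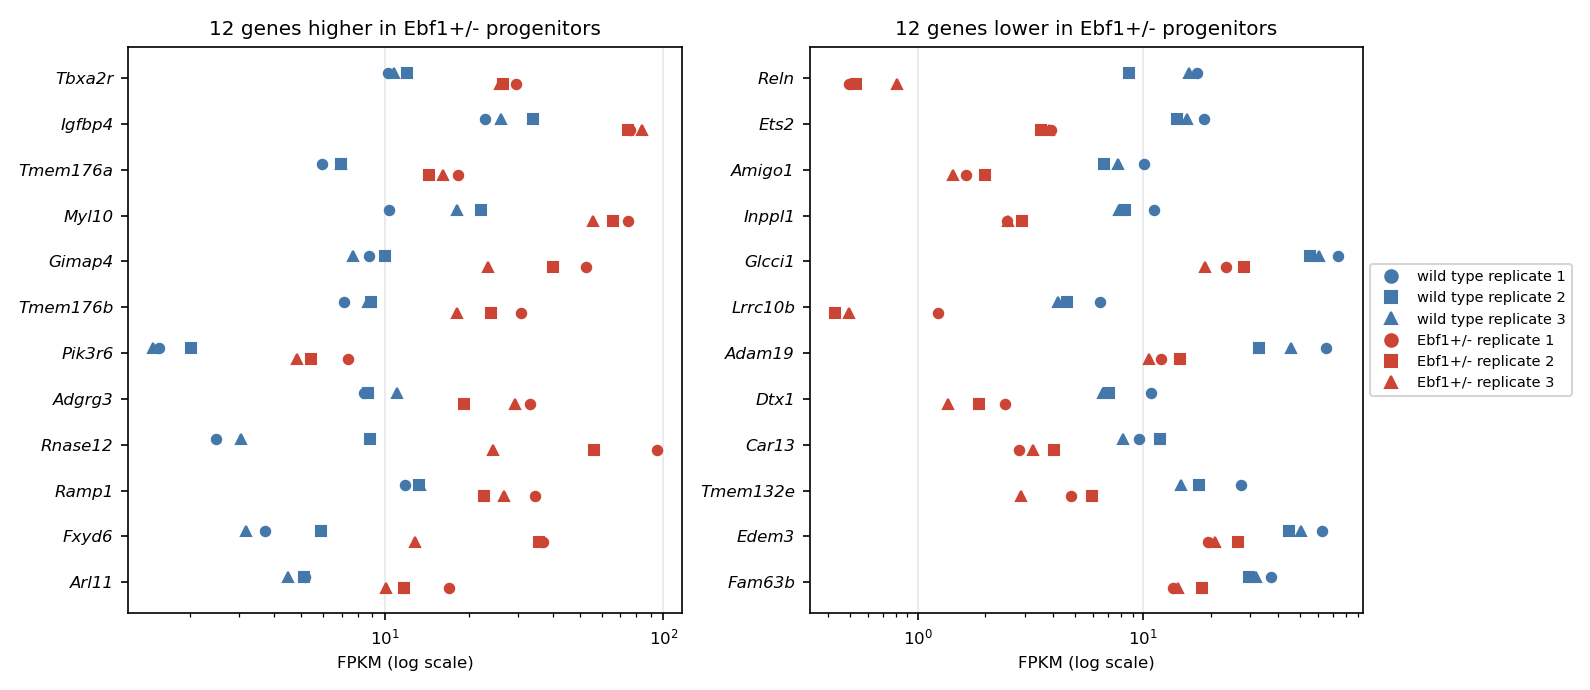
FPKM (log scale) of the 12 genes higher and 12 lower in Ebf1+/- progenitors that the naming rule chose, 1 point per library, blue for wild type and red for Ebf1+/-, with the symbol giving the replicate number. The groups do not overlap in any row, by the rule, and Reln shows the widest gap among the lower genes.

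The 24 genes were chosen for separate groups and small p, so their signs could hardly turn. None did under any of the 19 alternatives that tested it. Of the 24, 17 passed the adjusted threshold under at least 1 alternative, which is a description for the same reason. With all 3 groups in 1 fit 13 passed, and with array weights 10. Because Ebf1+/- replicate 2 resembled wild-type replicate 2, the rule was also run without each of these libraries. Of 12 higher genes chosen without Ebf1+/- replicate 2, 11 had that library above all 3 wild-type libraries, against 21.8% of all genes tested. Of 12 lower genes, 10 had it below all 3, against 24% of all genes. The exceptions were Clec12a, Akap12 and Gfra1. Chosen without wild-type replicate 2, all 12 higher and all 12 lower genes had that library outside the 3 Ebf1+/- libraries on the side of the other wild-type ones, against 23.3% and 17.7% of all genes. The libraries of the opposite genotype were the same in both steps, and the shares over all genes involve no such choice. These counts are therefore descriptions, and why the replicate 2 libraries are alike was not tested.

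The Gimap genes, GTPases of the immunity-associated protein family that act in lymphocyte survival, lie side by side with Tmem176a and Tmem176b on chromosome 6. Gimap4 was at 8.766, 10.02 and 7.662 FPKM in wild type and 52.71, 40.05 and 23.48 in Ebf1+/- (log2 fold change 1.95, SE 0.29). Tmem176b, a membrane channel protein of immune cells, was at 7.127, 8.93 and 8.654 FPKM against 30.85, 24.11 and 18.18, and Tmem176a at 5.961, 6.933 and 6.967 against 18.32, 14.34 and 16.11. This stretch of 200 kb was chosen after its values were seen, so it has no test. All 10 tested genes in it had higher means in Ebf1+/-, 6 of them without overlap (against 7.53% of all genes), and their median log2 fold change was 0.73. The members differed in size: Gimap9 was at 29.53, 25.12 and 20 FPKM against 43.44, 31.98 and 18.27, with overlap, and a log2 fold change of 0.25.

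Most B lineage transcription factors had lower means in Ebf1+/- progenitors. Of 25 tested, 20 had lower and 5 higher means, 9 were below without overlap and 1 above, and the median log2 fold change was -0.42. Over all genes the shares were 8.1% and 7.53% and the median 0.03. None passed the adjusted threshold. Ebf1+/- replicate 3 weighed on this count: without it, 9 of 25 had higher means and the median was -0.21.

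Ikzf3 and Ikzf1, of the Ikaros family, were below without overlap. Ikzf3 (Aiolos), which limits precursor B cell proliferation, was at 80.58, 65.09 and 70 FPKM in wild type and 11.73, 46 and 25.98 in Ebf1+/-, a log2 fold change of -1.52 (SE 0.44, adjusted p = 0.478 by limma). Ikzf1 (Ikaros), a tumour suppressor in B cell leukemia, was at 224.3, 225.4 and 209.7 FPKM against 130.2, 180.8 and 129.8. Both genes were lowest in Ebf1+/- replicates 1 and 3, and replicate 2 lay between those and wild type.

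Bach2, a repressor needed for B cell development, was at 130.9, 103.1 and 124.7 FPKM in wild type and 47.27, 78.68 and 42.66 in Ebf1+/- (log2 fold change -1.12, SE 0.25, adjusted p = 0.388 by limma). Irf4, a factor that drives light chain rearrangement and exit from the cycle at the pre-B stage, was at 153, 134.9 and 108.2 FPKM against 66.57, 92.43 and 43.36. Spib, an ETS factor related to PU.1, was at 652.1, 454 and 377.4 FPKM against 306.9, 244.7 and 131.6. Each was below wild type in every Ebf1+/- library, with wild-type replicate 1 the highest library and Ebf1+/- replicate 3 the lowest.

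The E proteins Tcf3 and Tcf12 and the HMG factor Sox4 were also below without overlap. Tcf3 was at 405.3, 326.4 and 283.4 FPKM in wild type and 228.6, 257 and 159.3 in Ebf1+/-. Tcf12 was at 83.49, 72.3 and 74.91 FPKM against 42.41, 60.1 and 41.64. Sox4 and Bcl6 had log2 fold changes of -0.71 (SE 0.25) and -0.42 (SE 0.20).

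Erg went the other way among these factors. This ETS factor, active in early pro-B cells, was at 17.17, 31.63 and 21.44 FPKM in wild type and 36.68, 74.43 and 32.11 in Ebf1+/- (log2 fold change 0.94, SE 0.36, adjusted p = 0.604 by limma). The myeloid and B cell factor Spi1 overlapped, at 85.28, 67.37 and 52.28 FPKM against 103.6, 67.63 and 62.63.

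Genes that Ebf1 is known to activate mostly had lower means, though this leaned on Ebf1+/- replicate 3. Of 20 tested, 17 had lower and 3 higher means, 1 was below without overlap (against 8.1% of all genes) and 0 above, and the median log2 fold change was -0.28. Without Ebf1+/- replicate 3, 10 of 20 had higher means and the median was 0.00, and without wild-type replicate 1 it was -0.11. Without both replicate 3 libraries it was -0.16, with 7 of 20 higher. Medians in pairs 1, 2 and 3 were -0.29, -0.07 and -0.74. Syk, the kinase that carries the pre-B cell receptor signal, was the 1 without overlap, at 487, 328.5 and 317.2 FPKM in wild type and 205.8, 251.7 and 175.1 in Ebf1+/-. Every Ebf1+/- library lay below every wild-type library for Syk, with Ebf1+/- replicate 3 the lowest.

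The surrogate light chain genes, direct targets of Ebf1, had higher means in Ebf1+/-. Igll1 was at 179.9, 352.4 and 165.7 FPKM in wild type and 732.9, 572.3 and 220.5 in Ebf1+/- (log2 fold change 1.04, SE 0.50, adjusted p = 0.696 by limma). Vpreb1 was at 215.5, 352.5 and 172.7 FPKM against 733.9, 550.8 and 224.3. Vpreb2 was at 38.03, 77.05 and 39.88 FPKM against 233.5, 165.3 and 64.81. Vpreb1 and Vpreb2 are near-identical copies whose reads may be shared, so their split is uncertain. All 3 genes overlapped between genotypes through Ebf1+/- replicate 3, and each same-numbered pair was higher in Ebf1+/-.

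Over the whole list of pre-B cell receptor genes, 15 of 21 had lower means, with a median log2 fold change of -0.17. It was 0.05 without Ebf1+/- replicate 3, -0.03 without wild-type replicate 1 and -0.10 without both replicate 3 libraries. Fyn, a Src family kinase, was the 1 above without overlap, at 18.15, 18.03 and 21.59 FPKM in wild type and 24.88, 27.22 and 34.47 in Ebf1+/-. Pik3r1, a regulatory subunit of PI3 kinase, was below without overlap, as Syk was, at 30.72, 28.54 and 35.13 FPKM against 18.06, 27.75 and 28.46. That made 1 above and 2 below of 21, near the 7.53% and 8.1% of all genes.

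Stage genes went both ways within each list, with Dntt of the pro-B list higher and Il2ra of the late pre-B list lower without overlap. Of 10 pro-B stage genes tested, 7 had higher means, with a median log2 fold change of 0.41 that was 0.09 without wild-type replicate 1 and 0.69 without wild-type replicate 3. Dntt, which adds nucleotides at V(D)J junctions, was at 130.2, 239.2 and 156.1 FPKM in wild type and 409.4, 490 and 268.7 in Ebf1+/- (log2 fold change 1.15, SE 0.31, adjusted p = 0.44 by limma). All 3 Ebf1+/- pools exceeded all 3 wild-type pools. Of the 10 genes, 2 were above and 1 below without overlap, against 7.53% and 8.1% of all genes. Log2 fold changes on this list ran from -0.78 to 1.15. Kit, the stem cell factor receptor, was at 5.794, 14.86 and 37.9 FPKM against 12.57, 22.53 and 38.01, and followed the replicate number more than the genotype.

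Among 13 late pre-B and mature stage genes, 8 had lower means and the median log2 fold change was -0.24. It was 0.01 without Ebf1+/- replicate 3, 0.00 without wild-type replicate 1 and -0.45 without wild-type replicate 3. Without both replicate 3 libraries it was -0.20. Il2ra was at 47.44, 34.64 and 32.27 FPKM in wild type and 15.59, 12.65 and 6.781 in Ebf1+/-, the largest difference of the stage genes, with a log2 fold change of -1.68 (SE 0.31, adjusted p = 0.228 by limma). It was the only member of that list whose groups did not overlap, 1 of 13, near the 8.1% of all genes that were below without overlap. Ms4a1, which encodes CD20, was at 20.86, 11.93 and 6.809 FPKM against 9.238, 6.069 and 3.012. The class II genes Cd74, H2-Eb1, H2-Aa and H2-Ab1 overlapped, with Ebf1+/- replicate 1 the highest library for each.

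Interleukin-7 drives growth of these cells through Il7r, Jak1, Jak3 and Stat5. Il7r was at 140.5, 117.3 and 118 FPKM in wild type and 86.46, 89.17 and 48.9 in Ebf1+/- (log2 fold change -0.78, SE 0.25). Socs2, a STAT5-induced suppressor of cytokine signalling, was at 4.41, 6.313 and 5.754 FPKM against 14.81, 16.06 and 7.802, and Cish, a related suppressor, at 1.794, 3.122 and 3.288 against 7.313, 6.809 and 4.264. Neither pair of groups overlapped, and log2 fold changes were 1.05 (SE 0.28) and 0.93 (SE 0.27). Other STAT5-induced genes had lower means with overlap, at log2 fold changes of -0.49 for the suppressor Socs1, -0.36 for the kinase gene Pim1 and -0.96 for Pim2. Jak3 and Socs3 were also above and the survival gene Bcl2l1 below without overlap. In all, 4 of 18 were above and 2 below without overlap, against 7.53% and 8.1% of all genes. Over the 18 genes tested, 10 had higher means and the median was 0.09, which was -0.03 without wild-type replicate 1 and also without Ebf1+/- replicate 3. Stat5a and Stat5b overlapped, with log2 fold changes of 0.12 and 0.00.

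Most recombination genes had lower means. Rag1, which cuts at the recombination signals, was at 302.5, 184.4 and 224.4 FPKM in wild type and 104.7, 185.1 and 92.24 in Ebf1+/-, with overlap through replicate 2. Its partner Rag2 was at 46.12, 35.66 and 29.75 FPKM against 46.13, 38.82 and 16.18. Lig4, the ligase that seals the joins, was at 35.45, 30.48 and 24.72 FPKM against 18, 20.3 and 9.733, without overlap. It was the 1 below of 13, near the 8.1% of all genes. Of 13 such genes, 11 had lower means, with a median log2 fold change of -0.18. It was 0.03 without Ebf1+/- replicate 3 and -0.10 without both replicate 3 libraries.

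**Figure D2:**
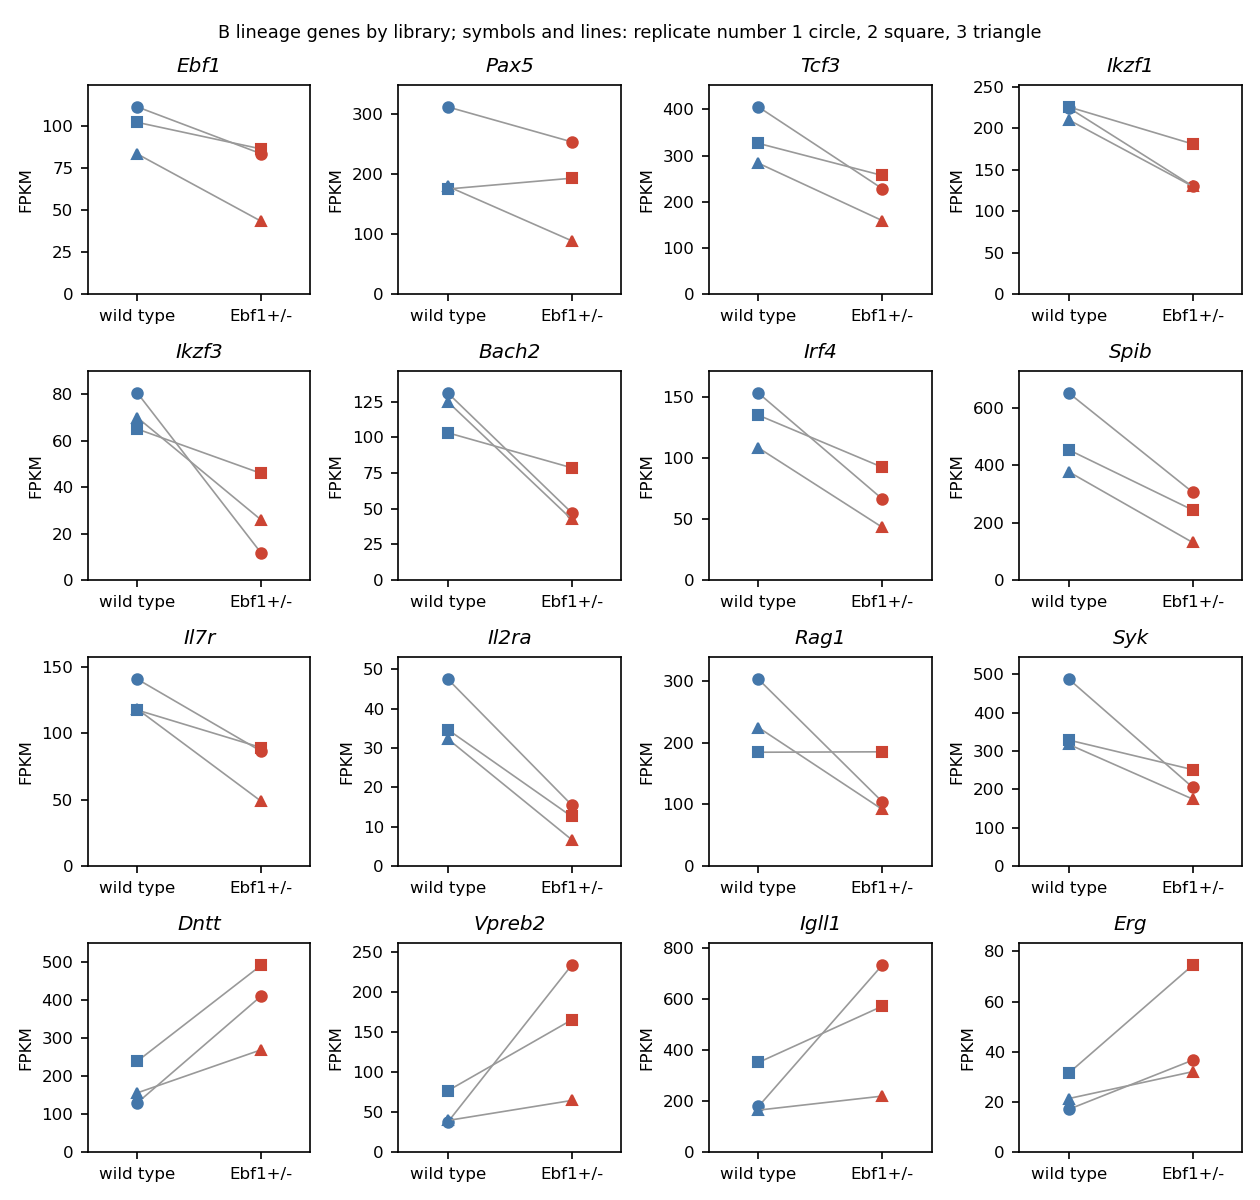
FPKM of 16 B lineage genes, with blue points for wild type and red for Ebf1+/- and lines joining libraries of the same replicate number. Each vertical axis starts at 0. Ikzf3, Bach2, Irf4, Spib, Il7r, Il2ra and Syk are lower in every pair, Dntt, Vpreb2, Igll1 and Erg are higher in every pair, and Pax5 and Rag1 are not.

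Genes that Pax5 activates and represses were read in the same way. Of 22 activated genes tested, 19 had lower means, 5 were below without overlap (Bach2, Irf4, Ikzf3, Spib and Plekha2, against 8.1% of all genes) and the median log2 fold change was -0.23. It was -0.02 without Ebf1+/- replicate 3, -0.13 without wild-type replicate 1 and -0.08 without both replicate 3 libraries. Of 14 repressed genes, 13 had higher means, 4 were above without overlap (against 7.53% of all genes) and the median was 0.70, and Notch1 alone had a lower mean. Without Ebf1+/- replicate 3, 9 of 14 had higher means and the median was 0.46.

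Emb, an adhesion protein of early progenitors, was at 16.81, 13.8 and 20.6 FPKM in wild type and 51.25, 29.38 and 58.23 in Ebf1+/- (log2 fold change 1.35, SE 0.28, adjusted p = 0.332 by limma). Alox5ap, which activates leukotriene synthesis in myeloid cells, was at 46.67, 34.35 and 44.16 FPKM against 161, 59.54 and 137.5. Ly6a (Sca-1), a stem cell antigen, was at 5.488, 7.49 and 12.6 FPKM against 45.23, 24.74 and 13. Emb and Alox5ap were highest in Ebf1+/- replicates 1 and 3, where early granule genes were also highest, while Ly6a was lowest in replicate 3 of that genotype, just above wild type.

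Of 6 tested genes that Ebf1 represses, 5 had higher means, with a median log2 fold change of 0.60. Tcf7, a T lineage factor, was at 5.961, 4.898 and 6.566 FPKM in wild type and 10.65, 9.563 and 9.442 in Ebf1+/-. It was the only 1 of the 6 without overlap, against 7.53% of all genes above (log2 fold change 0.68, SE 0.16, adjusted p = 0.427 by limma). Cebpa, a myeloid factor, was at 3.928, 2.652 and 4.366 FPKM against 9.155, 3.244 and 18.03, in the same order of Ebf1+/- libraries as the early granule genes.

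Markers of other blood cells differed between genotypes and between libraries. The 6 early granule genes of neutrophil precursors (Mpo, Elane, Prtn3, Ctsg, Ms4a3 and Cebpe) summed to 314, 241 and 323 FPKM in wild type and 1150, 434 and 2610 in Ebf1+/-. All 6 were above without overlap (against 7.53% of all genes) and none was at 0 in any library. Elane, neutrophil elastase, was at 74.96, 61.5 and 75.52 FPKM against 321.3, 102.8 and 631. The 10 late granule genes tested, such as S100a8 and S100a9, summed to 3130, 1590 and 317 FPKM against 9630, 2320 and 1510, all with higher means and 0 without overlap. Their median log2 fold change was 1.30, but 0.43 without wild-type replicate 3 and 0.62 without Ebf1+/- replicate 1.

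Monocyte, natural killer and T cell lists had higher means too. For the 9 tested monocyte genes, all 9 were higher, with summed levels of the whole list from 415 to 698 FPKM in wild type and 519 to 2120 in Ebf1+/-. All 9 natural killer genes were higher. Nkg7, a granule protein of cytotoxic cells, had the largest log2 fold change of that list, 1.76 (SE 0.50), at 12.53, 8.609 and 10.86 FPKM against 54.14, 15.68 and 64.29. Klrb1c, the NK1.1 antigen, had the smallest p, at 2.706, 2.531 and 2.543 FPKM against 8.435, 5.827 and 5.463 (log2 fold change 1.06, SE 0.20, adjusted p = 0.256 by limma). Of 11 T cell genes 9 were higher, with a median log2 fold change of 0.53 that dropping wild-type replicate 2 or Ebf1+/- replicate 1 brought to 0.24 or 0.29, and Thy1 was at 8.469, 5.152 and 6.283 FPKM against 14.79, 8.686 and 14.93. The part of these cells in the results above was not tested.

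The size of the platelet gene difference came from 1 library. The 8 megakaryocyte and platelet genes summed to 77.9, 257 and 471 FPKM in wild type and 143, 271 and 4170 in Ebf1+/-. Without Ebf1+/- replicate 3 their median log2 fold change was -0.14 rather than 1.21. Without both replicate 3 libraries it was 0.27, with 8 of 8 higher. Medians in pairs 1, 2 and 3 were 0.46, 0.09 and 3.05. Tbxa2r, named above, is a receptor known from platelets, and the part of platelets in its value was not tested. Of 12 erythroid genes, 4, the globins, were listed at 0 in every library. The 8 tested erythroid, 8 dendritic and 8 stem and early progenitor genes all had higher means, but 1, 3 and 5 of them without Ebf1+/- replicate 3. Without both replicate 3 libraries, 5, 7 and 8 of them were higher. The erythroid median of 0.40 was -0.06 without wild-type replicate 1, and the dendritic median of 0.22 was -0.05 without wild-type replicate 2. All 5 mast cell and basophil genes had higher means, as did 2 of 4 plasma cell and 1 of 4 stromal genes. Of the nuclear RNAs read for RNA quality, Malat1 was at 33.84, 21.21 and 31.19 FPKM against 21.68, 17.83 and 22.91, a log2 fold change of -0.43. Neat1, the other such RNA, was at 5.299, 1.064 and 1.222 FPKM against 6.649, 1.224 and 1.805, a log2 fold change of 0.24. Both RNAs overlapped between genotypes. The whole B cell list summed to 4210, 3270 and 2370 FPKM in wild type and 4930, 3630 and 1580 in Ebf1+/-. Of its 10 genes, 8 had lower and 2 higher means, with a median log2 fold change of -0.22. It was 0.24 without Ebf1+/- replicate 3 and 0.05 without both replicate 3 libraries.

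**Figure D3:**
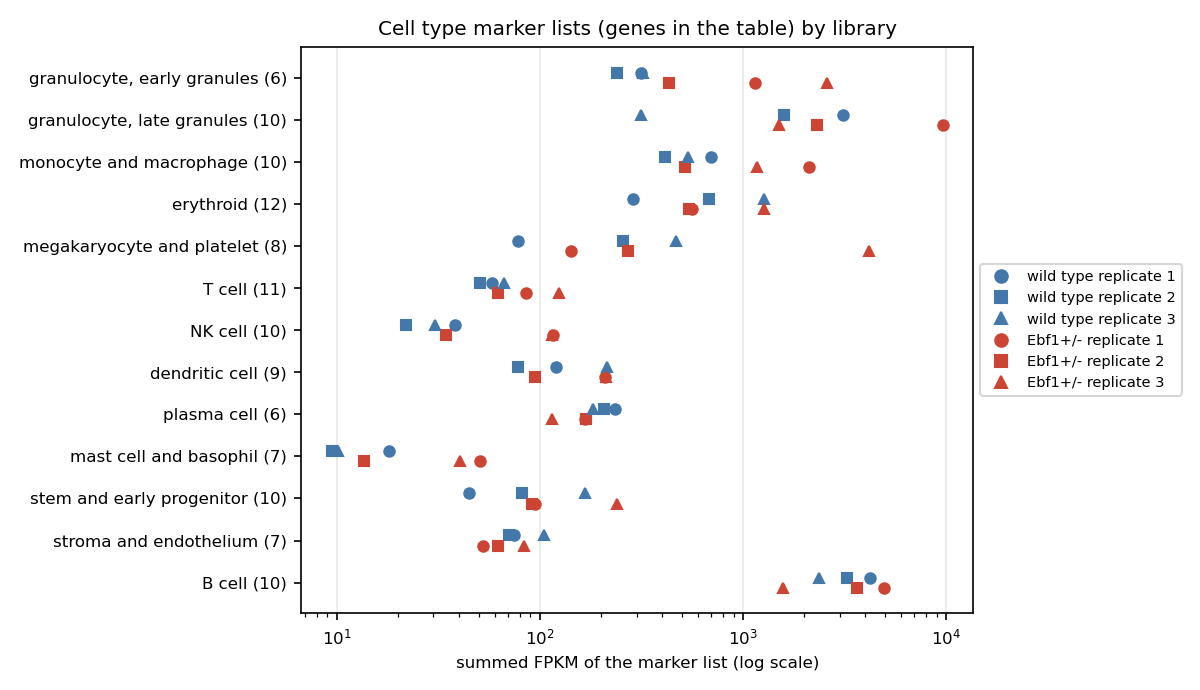
Summed FPKM (log scale) of each cell type marker list, 1 point per library, blue for wild type and red for Ebf1+/-. Early granule genes reach 1150 and 2610 in Ebf1+/- replicates 1 and 3, platelet genes 4170 in replicate 3, and the B cell list stays between 1580 and 4930.

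Outside the lineage programmes, glycolysis genes had higher means throughout. All 15 tested had higher means in Ebf1+/-, against 54.0% of all genes, and 8 were above without overlap, against 7.53%. Their median log2 fold change was 0.48, with 0.37, 0.09 and 0.61 in pairs 1, 2 and 3. Early granule genes had pair medians of 1.94, 0.83 and 3.04, in the same order, and the part of other blood cells in the glycolysis values was not tested. Gpi1, glucose-6-phosphate isomerase, was at 124.7, 133.2 and 120.1 FPKM in wild type and 181.1, 163.6 and 184.3 in Ebf1+/- (log2 fold change 0.48, SE 0.13, adjusted p = 0.468 by limma). Pkm, pyruvate kinase, was at 195, 229.8 and 155.8 FPKM against 252.4, 290.6 and 376.9. Under quantile scaling 14 of 15 were higher with a median of 0.41, and without Ebf1+/- replicate 3 it was 12 of 15 and 0.29.

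Ribosomal protein genes all had higher means, 26 of 26, but with a median log2 fold change of 0.24 that quantile scaling brought to 0.01 with 14 of 26 higher. The difference came mainly from pair 1, with medians of 0.64, 0.05 and 0.04 in pairs 1, 2 and 3. Oxidative phosphorylation genes were higher for 18 of 20, at medians of 0.52, -0.02 and 0.02 in the 3 pairs. Myc targets and ribosome biogenesis genes were higher for 17 of 21, with a median of 0.22, but without wild-type replicate 1 for 8 of 21, with a median of -0.04. Their pair medians were 0.57, 0.13 and 0.02.

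Cell cycle genes differed little. Of 22 mitosis genes, 21 had lower means, 0 of them without overlap, with a median log2 fold change of -0.15, and 15 of 24 replication genes had higher means with a median of 0.01, which was 0.16 without wild-type replicate 2 and -0.11 without wild-type replicate 1. Top2a, the topoisomerase that separates chromosomes, was at 314.1, 397 and 333.4 FPKM in wild type and 189.3, 366.7 and 262.5 in Ebf1+/-. Ebf1+/- replicate 1 was the lowest library for Top2a, and without Ebf1+/- replicate 3 the median of the mitosis genes was -0.02.

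Repair genes of the homologous recombination and Fanconi pathways had a median log2 fold change of 0.03 over 26 genes, as over all genes, and of -0.09 without wild-type replicate 1. Interferon-stimulated genes were higher for 17 of 19 with a median of 0.39, which was 0.17 without Ebf1+/- replicate 1. Oas1a, an antiviral synthetase, was at 8.022, 6.923 and 8.843 FPKM in wild type and 16.26, 11.43 and 10.18 in Ebf1+/-. Immediate early and NF-kB targets were lower for 14 of 17, with a median of -0.24, but without wild-type replicate 1 the median was 0.04 and 9 of 17 were higher. Nfkb2, an NF-kB subunit, was at 27.14, 19.19 and 18.51 FPKM against 16.25, 13.57 and 9.507.

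Of 12 unfolded protein response genes 9 had higher means, yet they were mixed. Sdf2l1, an endoplasmic reticulum chaperone component, was at 27.5, 35.77 and 32.13 FPKM in wild type and 56.64, 40.72 and 57.57 in Ebf1+/-. Herpud1, which serves the degradation of misfolded proteins, was at 256.8, 186.2 and 173.1 FPKM against 148.1, 101.7 and 80.71. Both groups of values were separate between genotypes, in opposite directions. Of the 12 genes, 3 were above and 1 below without overlap, against 7.53% and 8.1% of all genes. Of 13 p53 response genes, 6 had higher and 7 lower means, with a median of -0.07 that was -0.20 without Ebf1+/- replicate 3.

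Of 23 genes recurrently altered in B cell leukemia, 14 had lower means and 9 higher. Below without overlap were 5, Ikzf1, Ikzf3, Il7r, Rb1 and Tcf3 (against 8.1% of all genes), and above were 2, Erg and Jak3 (against 7.53%). The median log2 fold change was -0.06, and -0.21 without Ebf1+/- replicate 3. Rb1, which restrains entry into the cell cycle, was at 32.88, 33.24 and 33.95 FPKM in wild type and 21.52, 24.62 and 28.2 in Ebf1+/- (log2 fold change -0.42, SE 0.15).

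**Figure D4:**
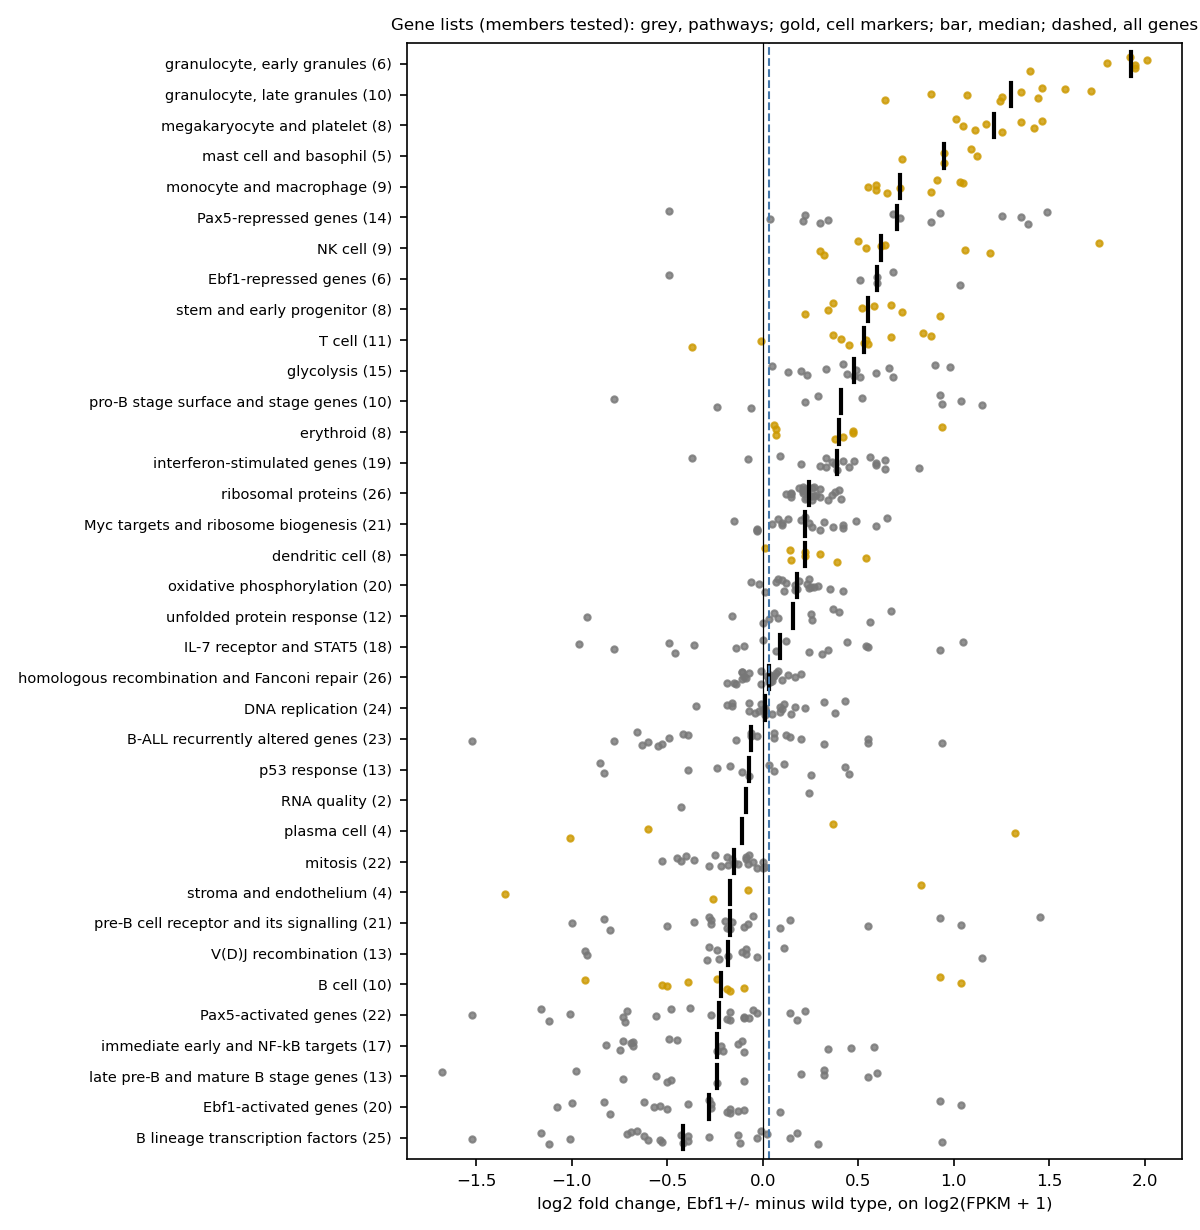
Log2 fold change (Ebf1+/- minus wild type) of every tested member of the 36 gene lists, 1 point per gene, with a black bar at each list's median and a dashed line at the median of all genes, 0.03. Early granule genes lie highest, at a median of 1.93, and B lineage transcription factors lowest, at -0.42.

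Genes around Ebf1 itself were described over 2 Mb on each side, a window chosen after its values were seen, so it has no test. Of 15 tested neighbours 6 were below without overlap (against 8.1% of all genes) and 2 above (against 7.53%), and the median log2 fold change was -0.21. Clint1, a clathrin adaptor, was at 150.8, 133.4 and 136.4 FPKM in wild type and 90.53, 103.2 and 114.3 in Ebf1+/-. Cyfip2, a component of the actin-regulating WAVE complex, was at 251.5, 247.9 and 219.2 FPKM against 100, 192.5 and 109.2. Adam19, given above, lies in the same window, 1048 kb from the end of Ebf1. The other 3 below were Ublcp1, Rnf145 and Fndc9.

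The largest difference in that window was in a long non-coding gene. 4930597A21Rik (chromosome 11, 44586317 to 44591229, plus strand) ends 26 kb before Ebf1 begins and was left out by the naming rule for its symbol. It was at 0.1292, 0 and 0 FPKM in wild type, which is 1, 0 and 0 reads, and at 53.14, 21.97 and 9.332 FPKM in Ebf1+/-, which is 568, 172 and 82 reads. Per library total, 822 reads against 1 gave a ratio of 787 with an exact interval of 141 to 31100 that covers counting error only. The log2 fold change was 4.49 (SE 0.55, adjusted p = 0.133 by limma). Over the alternatives it passed under a pseudocount of 0.1, with all 3 groups in 1 fit, with array weights and without Ebf1+/- replicate 3. The structure of the targeted allele was not analysed here, and whether it gives rise to these reads was not tested. The other gene above, Pttg1, encodes securin, which guards sister chromatids until anaphase. It was at 9.388, 7.132 and 7.185 FPKM in wild type and 40.16, 18.16 and 16.09 in Ebf1+/-.

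**Figure D5:**
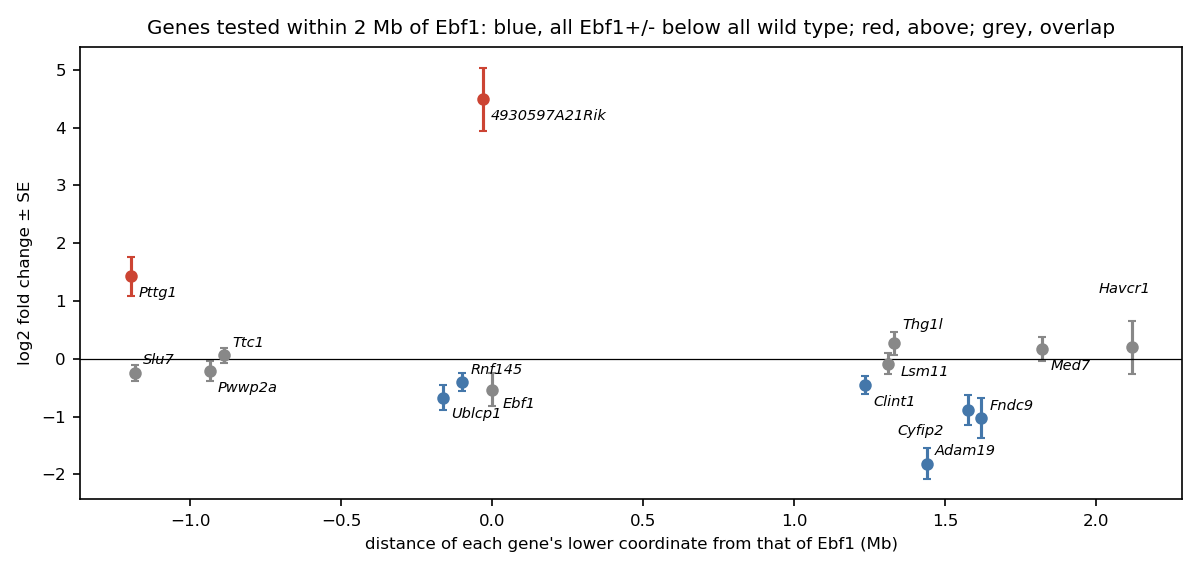
Log2 fold change with its SE for each tested gene within 2 Mb of Ebf1, against distance in Mb, blue where all Ebf1+/- libraries were below all wild-type ones and red where above. 4930597A21Rik at 4.49 and Pttg1 at 1.43 lie above, and Adam19 at -1.81 lies lowest.

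The leukemias share the wild-type libraries as a control and came from lymph node, so their levels are set beside these only as values (mean ± SD, n = 5). Ebf1 averaged 66.6 ± 10.8 FPKM and Pax5 119 ± 38.3 in leukemia. Reln averaged 0.0105 ± 0.00902 FPKM, Ets2 0.721 ± 0.547, Rnase12 720 ± 95.3 and Gimap4 370 ± 54.4. Fxyd6 averaged 7.07 ± 8.87 FPKM, but ran from 0.469 to 19.5 over the leukemias. Its leukemia median of 1.16 was below the lowest wild-type library, at 3.157. 4930597A21Rik averaged 3.6 ± 3.23 FPKM and ran from 0.674 to 8.4 over the leukemias. Each leukemia was thus below every Ebf1+/- progenitor library and above every wild-type library, the highest of which was at 0.1292.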

How the data were processed

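RNA sequencing libraries of 3 wild-type and 3 Ebf1+/- progenitor B cell pools were compared. The authors deposited 1 table of FPKM values for mouse build mm10 (GRCm38). The submitters' processing notes name BWA 0.7.12 for wild type and TopHat2 with Cufflinks for Ebf1+/-. The counting tool and its annotation were not given in the sources used here. FPKM values of all 17380 genes above 0 (100.0%) came out as whole reads within 0.001 read, which gave the library totals. Of the identifiers, 27 were date-like and were not named, and 22014 (95.4%) matched GENCODE M21 symbols, the source of coordinates. Reads of overlapping genes cannot be told apart.

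Genes averaging 1 FPKM or more were tested on log2(FPKM + 1) by limma 3.58.1 under R 4.3.3 (trended eBayes, two-sided, no block), with Benjamini-Hochberg adjustment over 11167 genes and a threshold of 0.05. limma was tested on simulated data first. Named genes are Ebf1, Pax5, the 12 higher and 12 lower genes of smallest p with a group mean of at least 5 FPKM, a 2-fold difference and no overlap (immunoglobulin and T cell receptor segments, Gm, Rik, -ps and small RNA symbols left out), and members of 36 lists. The members and lists were chosen with earlier results of these data known. A member of these lists is not reported here. Replicate numbers are in both groups' titles, and deviations of same-numbered libraries from their group means correlated at 0.65, 0.33 and 0.69. All exceeded 0.1, the cut used to treat same-numbered libraries as possible pairs, although the labels state no shared day. With 3 libraries a group the deviations depend on each other, so these values cannot show that libraries were paired. The main test stayed unpaired, and the fit with the replicate block was an alternative. No pair of the 6 libraries agreed within sampling noise. Alternatives were a pseudocount of 0.1, a filter at 5 FPKM or none, the replicate block, array weights, a fit over all 3 groups, robust eBayes, scaling by quantiles or median ratios, voom on recovered reads, and leaving out libraries. The windows around Ebf1 and Gimap4 and the choice of genes without a replicate 2 library were added after the data were seen. Promoter sequences are RefSeq's. Tables and plots used Python 3.11.15 with pandas 2.3.3, SciPy 1.17.1 and Matplotlib 3.10.9. The interval of a read ratio covers counting error only, because without molecular identifiers PCR copies count as reads.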

Additional observations from a re-analysis of the deposited data

Results flagged for a closer look

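Among 27 genes whose leukemia values were examined (n = 5), 5 had a library far from the other 4. Chance gives about 1 in 20 only for normally distributed values, which was not tested for these FPKM. Leukemia medians of Lrrc10b, Adam19 and Inppl1 were 0.0, 0.4 and 0.794 FPKM, near the floor. The 5 flags are therefore a description, not an excess over chance. Igfbp4 had 1 low leukemia at 122 FPKM. Arl11 had 1 high leukemia at 21.3 FPKM, Inppl1 at 6.3, Lrrc10b at 0.194 and Adam19 at 3.82. Groups of 3 progenitor libraries were too small for this check.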

How the results depend on the processing

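The count of genes past the adjusted threshold was 0 in the main comparison and also with a filter at 5 FPKM or none, quantile scaling, robust eBayes, voom and the replicate block. It was 3 with a pseudocount of 0.1, 2 with median-ratio scaling, 23 with all 3 groups in 1 fit and 13 with array weights, and 0 to 5 when libraries were left out, with 5 without Ebf1+/- replicate 3. The count at an unadjusted p under 0.05 was 863, 1800 with the replicate block, and 427 to 1374 with libraries left out. It was 511 without wild-type replicate 2, 502 without pair 1 and 504 without pair 3. The cause was not tested. Ebf1 kept a lower mean under all 19 alternatives, from -0.70 to -0.21 in log2. Of 472 values of the 24 genes and Pax5 under the alternatives, 441 kept direction and side of the threshold and 30 newly passed. The 1 that turned was Pax5, at 0.05 without Ebf1+/- replicate 3. The 24 genes were chosen for separate groups, so their directions could hardly turn. Of 684 list medians 50 moved by more than the spread between pairs. The block changed no call. The comparison rests on 3 libraries a group, and a difference within their spread was not detectable.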
